A study of Drosophila melanogaster and Drosophila mauritiana and Drosophila simulans with 22 samples.

Results

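Testis expression was compared between Drosophila mauritiana and Drosophila simulans with 4 arrays of mauritiana testes and 3 arrays of simulans testes, out of 22 arrays in 7 groups in the series. The arrays were chosen by their titles. On each one, RNA of a pool of 200 testes, dissected without accessory glands from males aged 4 days, was paired with whole male RNA of D. melanogaster strain 14021-0231.00. The mauritiana males were of strain 14021-0241.1 and the simulans males of strain 14021-0251.2, both kept at 25 °C, so each species is represented by 1 strain. Testis RNA went through 1 round of amplification and carried the dye Cy5, whole male RNA carried Cy3, and no array had the dyes swapped. A value is therefore a log2 ratio of testes over whole melanogaster males, and a difference is the mauritiana mean minus the simulans mean of these ratios. Of 6793 genes with 1 symbol, 6055 were measured on 2 or more arrays in both species and were tested.

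The 2 species are close relatives that cross in the laboratory and give sterile hybrid sons. In fly testes, spermatocytes switch on a large set of genes of sperm formation through testis forms of general transcription factors (tTAFs) and a testis form of the MMB/dREAM complex (tMAC). Most of these RNAs are made before meiosis and translated later, while a few genes, the cup and comet genes, are transcribed in spermatids. Mitochondria fuse into a derivative that runs along the sperm tail, and spermatids carry testis forms of many housekeeping proteins. Genes of the testis are among the fastest to diverge between fly species.

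The arrays differed in ways that bear on every result below. Simulans 1 and 2 correlated at r = 0.97 across genes and differed by 1.03 times the noise between duplicate spots, against 1.59 to 3.31 times for the other pairs within a species, so they may be runs of the same RNA. Results that depend on counting them as separate samples are given with the pair averaged as well. Mauritiana 2 correlated with mauritiana 1, 3 and 4 at 0.74, 0.78 and 0.71, where these correlated with each other at 0.87, and its correlation with the simulans arrays was 0.71 to 0.72. The mauritiana arrays held 13326 to 20638 of 27648 rows and the simulans arrays 25814 to 26473. The spread over the genes tested (median absolute deviation as scaled by R) was 0.73 to 1.46 on mauritiana arrays and 0.60 to 0.79 on simulans arrays. Of the markers of testes, the 6 late germline genes had array medians of 1.80 to 2.70 in mauritiana and 1.52 to 1.66 in simulans. Other testis markers were lower. The 2 somatic testis genes tested, eya and zfh1, had array medians of -0.87 to -0.08 in mauritiana and -0.83 to -0.37 in simulans. The only early germline gene tested, bam, averaged -0.68 in mauritiana and -0.18 in simulans, and vas, nos and tj were not tested. Gut protease genes had array medians of -4.04 to -3.21 in mauritiana and -3.58 to -3.09 in simulans. Nothing in the labels says that replicates are separate cultures, and the p-values then cover only how these samples vary, and the number of arrays limits the precision.

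At a Benjamini-Hochberg adjusted p under 0.05 in limma, 1007 genes differed between the species, 16.6% of those tested. Of these, 530 were higher in mauritiana testes (8.75%) and 477 were lower (7.88%). The size of a called difference was 0.92 to 4.39 on the log2 scale with a median of 1.48, and 986 of the 1007 were at least 2-fold if the base is 2, which was inferred from other arrays of the series. The arrays of the species did not overlap for 34.8% of all genes tested, called or not. Among the 819 called genes with values on all 7 arrays, they were apart for 779. A lack of overlap in a called gene is therefore no further support for its call. The median difference over all genes was -0.19, and 2447 of the 6055 differences lay above 0. Counts and medians of gene groups are read against these and the 16.6% called. With simulans 1 and 2 averaged, 349 genes were past the threshold (5.87%, 267 higher and 82 lower), all of them among the 1007. Without mauritiana 2, 1760 were (31.9%, 884 higher and 876 lower). With the arrays scaled to 1 spread, 1431 were (23.6%, 560 higher and 871 lower), and with quantile normalization 1527 (25.2%, 580 higher and 947 lower). Centring changed this less, with 18.4% called with no centring and 16.5% with centring on the genes tested. In bulk tissue, fewer cells of a type and less RNA per cell cannot be told apart, nor can a difference in level from a difference in how well the RNA of each species binds a probe.

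**Figure D1:**
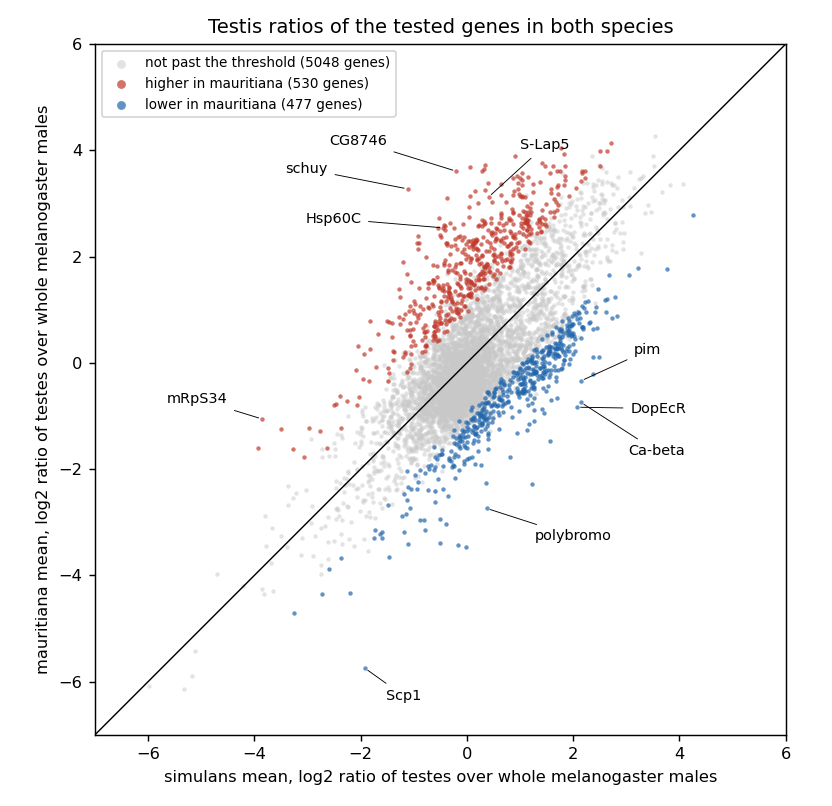
Each point is 1 of the 6055 genes tested, with its mean log2 ratio of testes over whole melanogaster males in mauritiana (vertical axis) and in simulans (horizontal axis). Red points are the 530 genes higher in mauritiana, blue points the 477 lower, and the line marks equal values. Called genes lie on both sides over most of the range, and schuy and Scp1 are the ones furthest from the line.

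Genes with high ratios in melanogaster testes were called more often. When the genes were put into 5 bins by their mean ratio on the 3 melanogaster testis arrays, 4.13% of genes in the lowest bin were higher in mauritiana and 6.28% lower, against 18.8% higher and 11.6% lower in the highest bin. The median difference was -0.14 in the lowest bin, -0.31, -0.29 and -0.18 in the middle ones and 0.17 in the highest, where ratios were between 1.15 and 4.48. This order depended on the scaling: with the arrays at 1 spread the medians were 0.27, -0.12, -0.18, -0.26 and -0.47. Direction of a group of strongly testis-biased genes is therefore given with the scaled value wherever it turns. The bins and the ratios share the whole male RNA.

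**Figure D2:**
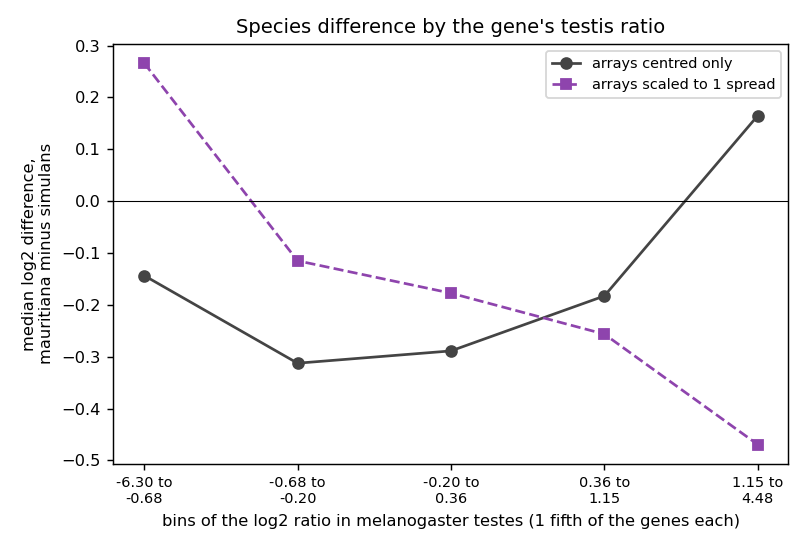
The vertical axis is the median log2 difference, mauritiana minus simulans, of the genes in each bin, and the horizontal axis the bins by log2 ratio in melanogaster testes, 1210 or 1211 genes each. The solid line, with arrays centred only, ends at 0.17, and the dashed line, with arrays also scaled to 1 spread, ends at -0.47.

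The largest difference was that of schuy, a cup and comet gene. Its log2 ratios were 3.31, 2.09, 3.66 and 4.04 in mauritiana testes, against -0.91, -0.86 and -1.58 in simulans testes, a difference of 4.39 ± 0.43, adjusted p = 0.00015, or 20.9-fold. All 4 mauritiana arrays stood above 0 and all 3 simulans arrays below it. The melanogaster arrays averaged 1.62, between the species.

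Next came genes of other functions. CG8746 had 3.45, 2.72, 4.18 and 4.06 in mauritiana and -0.14, -0.35 and -0.10 in simulans, a difference of 3.80 ± 0.37, adjusted p = 0.00015. POLDIP2, named for binding DNA polymerase delta in mammals, had 3.24, 3.37, 4.0 and 4.16 in mauritiana and 0.57, 0.67 and -1.09 in simulans, a difference of 3.64 ± 0.44, adjusted p = 0.000294. Simulans 3 was the lowest array for POLDIP2, and also for CG9389, which had 3.55, 3.08, 4.17 and 4.09 in mauritiana and 0.78, 0.99 and -0.77 in simulans (3.39 ± 0.44, adjusted p = 0.000516). For CG13088 the mauritiana arrays were at 2.91, 2.88, 2.91 and 3.71 and the simulans arrays at 0.03, -0.23 and -0.94 (3.48 ± 0.35, adjusted p = 0.00015). In each of these 4 genes every mauritiana array was above 2 and every simulans array below 1.

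Of the higher genes with symbols other than CG numbers, 4 more stood among the 6 highest. TSG101, a subunit of the ESCRT-I complex that sorts membrane proteins into endosomes, had 2.46, 1.48, 2.35 and 2.73 in mauritiana testes and -0.71, -0.70 and -1.28 in simulans testes, a difference of 3.15 ± 0.35, adjusted p = 0.000271. Ufsp2, a protease of the ubiquitin-like modifier UFM1, had 2.19, 1.10, 1.94 and 2.39 in mauritiana and -1.03, -1.26 and -1.31 in simulans (3.11 ± 0.35, adjusted p = 0.000271). Both were above 1 on every mauritiana array and below 0 on every simulans array. Naa30A, a catalytic subunit that acetylates protein N-termini, had 3.23, 1.84, 3.42 and 4.06 in mauritiana and 0.46, 0.43 and -0.74 in simulans (3.09 ± 0.48, adjusted p = 0.00169). ste24b, of the family of proteases that cut prenylated proteins, had 2.87, 2.45, 4.24 and 5.02 in mauritiana and 0.40, 0.37 and 0.19 in simulans (3.33 ± 0.52, adjusted p = 0.00162). Mauritiana 2 was the lowest of the mauritiana arrays for these 4 genes. That it lay above every simulans array follows from the choice of genes without overlap.

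The lowest difference was that of Scp1, a sarcoplasmic calcium-binding protein known from muscle. Its ratios were -4.82, -5.75, -7.59 and -4.82 in mauritiana testes and -1.91, -2.16 and -1.69 in simulans testes, a difference of -3.82 ± 0.55, adjusted p = 0.00106. It was far below whole males in both species, and lower in mauritiana. The 3 muscle markers tested had array medians of -3.98 to -1.92 in mauritiana and -1.75 to -1.21 in simulans, with 1 of the 3, Mlc1, past the threshold, and their part in the Scp1 difference was not tested. In the wider list of 8 muscle genes 2 differences lay above 0, those of Act87E (0.41) and Act79B (0.07).

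CG31451 was at -1.59, -2.01, -3.66 and -1.83 in mauritiana and 1.67, 1.70 and 0.29 in simulans (-3.49 ± 0.50, adjusted p = 0.00104). polybromo, which targets a SWI/SNF-type chromatin remodeller, was at -1.90, -2.83, -3.37 and -2.85 in mauritiana and 0.43, 0.55 and 0.13 in simulans (-3.11 ± 0.36, adjusted p = 0.000281). eIF4G1, the scaffold that joins the cap-binding protein to the ribosome, was at -1.94, -2.29, -1.63 and -0.04 in mauritiana and 1.86, 1.81 and 1.05 in simulans (-3.04 ± 0.47, adjusted p = 0.00164). In all 3, each mauritiana array was below 0 and each simulans array above it. A pair of membrane signalling genes followed. DopEcR, a receptor for dopamine and ecdysteroids, had -1.30, 0.05, -0.64 and -1.45 in mauritiana and 2.32, 2.17 and 1.73 in simulans (-2.91 ± 0.38, adjusted p = 0.000574). Ca-beta, the beta subunit of voltage-gated calcium channels, had -0.42, -0.47, -1.27 and -0.82 in mauritiana and 2.44, 2.21 and 1.78 in simulans (-2.89 ± 0.32, adjusted p = 0.000271). Both were enriched in simulans testes over whole males and near or below 0 in mauritiana testes. Jhbp13, of the juvenile hormone binding protein family, was at -1.81, -3.61, -4.0 and -2.72 in mauritiana and -0.09, -0.17 and -0.94 in simulans (-2.63 ± 0.47, adjusted p = 0.00363).

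These 16 genes, 9 higher and 7 lower, were past the threshold in the same direction under all 23 other settings, the ways of processing shown in the plot of calls, with adjusted p at most 0.0295. The settings reuse the same arrays, and the 16 genes were chosen for large differences without overlap, so much of this follows from the choice. Counts of settings here and below describe how far a call depends on the processing and are not independent support. Over all genes, 225 were called in the fit, under 4 scalings, with the simulans pair averaged and with each array left out, 172 higher and 53 lower. The melanogaster mean, a group that did not choose them, was nearer simulans for 4 of the 9 higher genes and 5 of the 7 lower.

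**Figure D3:**
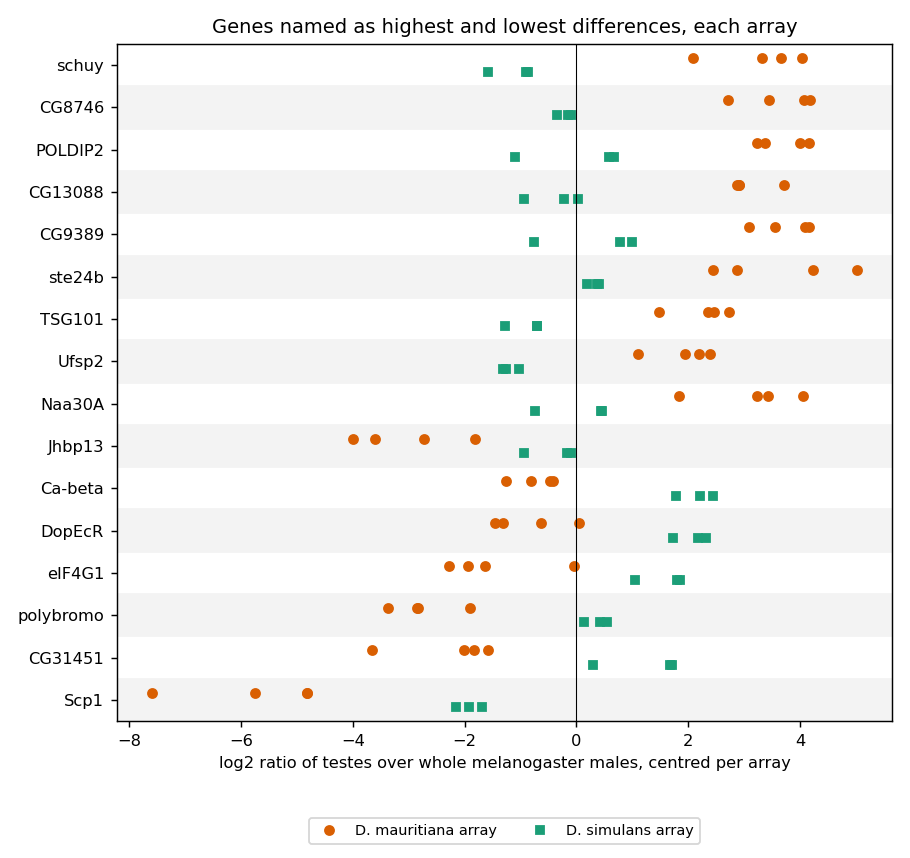
Log2 ratios of testes over whole melanogaster males, centred per array, for 16 genes (horizontal axis), 1 row per gene, namely the 6 highest and the 6 lowest differences of any symbol and of symbols other than CG numbers, among called genes on all 7 arrays without overlap. Orange circles are the 4 mauritiana arrays and green squares the 3 simulans arrays, and by this choice they overlap in no row.

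Cup and comet genes were called mostly higher in mauritiana testes. Of 9 cup and comet genes, 5 were higher and 1 lower, and the median was 1.24, beside -0.19 for all genes. Apart from schuy, h-cup had 2.55, 2.39, 2.93 and 3.20 in mauritiana and 1.25, 1.29 and 0.80 in simulans (1.65 ± 0.32, adjusted p = 0.00564), with no overlap. boly (1.68 ± 0.42, adjusted p = 0.0184), m-cup (1.28 ± 0.32, adjusted p = 0.0179) and hale (1.24 ± 0.38, adjusted p = 0.0403) were also higher. soti, which restrains a ubiquitin ligase during sperm individualization, was lower, with 0.46, 1.41, 1.06 and 1.99 in mauritiana and 2.92, 2.99 and 2.44 in simulans (-1.55 ± 0.37, adjusted p = 0.016). The 3 members not past the threshold had differences of -0.66 (f-cup), -0.43 (p-cup) and 0.15 (r-cup). With simulans 1 and 2 averaged schuy and h-cup were left (2 higher, 0 lower), and with the arrays scaled to 1 spread 2 were higher and 2 lower with a median of 0.19. For h-cup the adjusted p was then 0.051.

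All 3 sperm leucyl aminopeptidases tested, whose products are among the most abundant proteins of sperm, were higher. S-Lap5 had 3.14, 2.70, 3.09 and 3.55 in mauritiana and 0.54, 0.54 and 0.15 in simulans (2.71 ± 0.31, adjusted p = 0.000279). S-Lap7 had 2.78, 0.32, 2.92 and 3.18 in mauritiana and 0.20, 0.13 and -0.15 in simulans (2.24 ± 0.56, adjusted p = 0.0184), and mauritiana 2 was far below the other mauritiana arrays. S-Lap8 had 2.91, 1.91, 3.19 and 3.96 in mauritiana and 1.48, 1.55 and 1.40 in simulans (1.51 ± 0.41, adjusted p = 0.0262). S-Lap5 was past the threshold in all 23 settings. S-Lap7 was past the threshold in 19 of 23 other settings, and not without mauritiana 1, mauritiana 3, mauritiana 4 or simulans 3 (adjusted p = 0.0542 to 0.0702). With the simulans pair averaged S-Lap8 was not past it (adjusted p = 0.0779). With the arrays scaled to 1 spread, and likewise with quantile normalization, 2 of the 3 were past it, S-Lap5 and S-Lap7.

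Of 11 late spermatid and sperm tail genes, 2 were higher and 0 lower (18.2% called, beside 16.6% of all genes). All 11 differences lay above 0, with a median of 0.58, beside 2447 of 6055 over all genes. With the arrays scaled to 1 spread the median was -0.42, with 1 higher, 2 lower and 2 of the 11 differences above 0. With quantile normalization the median was -0.24, with 3 differences above 0. Ance, a peptidase of the angiotensin converting enzyme family needed for spermatid differentiation, had 1.39, -1.02, 1.25 and 1.83 in mauritiana and -0.90, -1.03 and -1.91 in simulans (2.15 ± 0.57, adjusted p = 0.0229), and mauritiana 2 lay among the simulans arrays. CG10252 had 3.41, 1.57, 3.90 and 4.74 in mauritiana and 1.44, 1.55 and 1.13 in simulans (2.03 ± 0.56, adjusted p = 0.028). Ance was past the threshold in 19 of 23 other settings, and not without mauritiana 1, mauritiana 3, mauritiana 4 or simulans 3 (adjusted p = 0.0641 to 0.102). CG10252 was past the threshold in 14 of 23 other settings, and not with simulans 1 and 2 averaged (adjusted p = 0.0566), with the arrays scaled to 1 spread (adjusted p = 0.0916), with the spread from all 22 arrays (adjusted p = 0.0531) or without mauritiana 1, mauritiana 3, mauritiana 4, simulans 1, simulans 2 or simulans 3 (adjusted p = 0.0503 to 0.1).

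Genes of the spermatocyte transcription list were called in 1 direction, lower. Of 8 tested genes of this tTAF and tMAC list 0 were higher and 3 lower (37.5% called, beside 16.6% of all genes). Taf12L was the only tTAF gene among them, and kmg, not past the threshold (-0.10), is part of neither complex. All 8 differences were below 0, and the median was -0.80. Over all genes 2447 of 6055 differences lay above 0. achi, a homeodomain subunit of tMAC, was at -0.83, -0.34 and -0.93 on the 3 mauritiana arrays with a value and at 0.63, 0.75 and 0.58 in simulans (-1.35 ± 0.32, adjusted p = 0.0175). comr, another tMAC component, was at -0.32, 0.31, -0.30 and -0.39 in mauritiana and 1.05, 1.04 and 0.76 in simulans (-1.13 ± 0.30, adjusted p = 0.0247). For Taf12L, a testis TAF, the values were -1.02, -0.34 and -1.47 in mauritiana and 0.16, 0.13 and 0.42 in simulans (-1.18 ± 0.36, adjusted p = 0.0444). No mauritiana array reached a simulans array for any of the 3, as in most called genes (779 of 819 with values on all 7 arrays). With simulans 1 and 2 averaged 0 of the 8 were past the threshold, with 3 at an unadjusted p under 0.05. With mauritiana 2 left out as well, achi and comr were past it. achi was past the threshold in 16 of 22 other settings, and not with simulans 1 and 2 averaged (adjusted p = 0.0849), with the spread from all 22 arrays (adjusted p = 0.345) or without mauritiana 1, simulans 1, simulans 2 or simulans 3 (adjusted p = 0.0511 to 0.0952). comr was past the threshold in 16 of 23 other settings, and not with simulans 1 and 2 averaged (adjusted p = 0.134), with the spread from all 22 arrays (adjusted p = 0.219) or without mauritiana 1, mauritiana 3, simulans 1, simulans 2 or simulans 3 (adjusted p = 0.0524 to 0.137). With the arrays scaled to 1 spread 5 of the 8 were lower and the median was -1.0.

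The list of axonemal dynein, kinesin and tubulin genes had 2 of 20 higher, 2 lower (20% called, beside 16.6% of all genes) and a median of -0.03. It also held Dic1 and Dic3, which are mitochondrial dicarboxylate carrier genes and not dynein genes. Neither of the 2 higher genes is therefore a gene of the axoneme. betaTub60D, the beta3 tubulin known from muscle and other somatic cells rather than from the axoneme, had 2.14, 0.17, 2.16 and 2.90 in mauritiana and -0.32, -0.24 and -0.46 in simulans (2.18 ± 0.51, adjusted p = 0.0144). The carrier gene Dic3 had 2.58, 3.57, 3.91 and 4.40 in mauritiana and 2.23, 2.32 and 1.95 in simulans (1.45 ± 0.40, adjusted p = 0.0261). Among the lower genes, the axonemal dynein intermediate chain gene Dic61B differed by -1.29 ± 0.37, adjusted p = 0.033 and Dhc16F by -1.13 ± 0.36, adjusted p = 0.0496. betaTub60D was past the threshold in 22 of 23 other settings, and not without simulans 3 (adjusted p = 0.0558). Dic3 was past the threshold in 13 of 23 other settings, and not with simulans 1 and 2 averaged (adjusted p = 0.0746), with the arrays scaled to 1 spread (adjusted p = 0.881), with quantile normalization (adjusted p = 0.271), with the spread from all 22 arrays (adjusted p = 0.0814), with the simulans pair averaged and mauritiana 2 left out (adjusted p = 0.063) or without mauritiana 3, mauritiana 4, simulans 1, simulans 2 or simulans 3 (adjusted p = 0.0501 to 0.0987). With the simulans pair averaged Dic61B (adjusted p = 0.139) and Dhc16F (adjusted p = 0.175) were not past it.

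Meiosis and cohesion genes included strong differences in both directions. Of 13 tested, 2 were higher and 2 lower (30.8% called, beside 16.6% of all genes), and the median was -0.69. pim, the securin that holds back separase until anaphase, was at -0.61, 0.37, -1.19 and 0.07 in mauritiana and 2.02, 1.87 and 2.54 in simulans (-2.48 ± 0.39, adjusted p = 0.00169), a 5.6-fold difference. fzr2, a testis activator of the anaphase-promoting complex, was at 2.49, 1.14, 2.34 and 3.03 in mauritiana and 0.36, 0.37 and -0.39 in simulans (2.14 ± 0.42, adjusted p = 0.00636). The arrays of the species were apart for both genes, with simulans high for pim and mauritiana high for fzr2. rux, an inhibitor of cyclin-dependent kinase that acts in meiosis, was higher (1.53 ± 0.41, adjusted p = 0.0237), and tef, which pairs autosomes in male meiosis, was lower (-1.01 ± 0.32, adjusted p = 0.0439). pim was past the threshold in all 23 settings and fzr2 in 22, the exception being the spread taken from all 22 arrays. With the simulans pair averaged tef was not past it (adjusted p = 0.193). rux was not past it with the arrays scaled to 1 spread (adjusted p = 0.15) or with quantile normalization (adjusted p = 0.051).

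Of 18 genes of the piRNA pathway, which silences transposons in the germline, 3 were higher and 2 lower with a median of 0.09. The share called was 27.8%, beside 16.6% of all genes. papi, a Tudor protein on the mitochondrial surface where piRNA ends are trimmed, had 2.60, 2.55, 2.62 and 3.59 in mauritiana and 1.15, 1.59 and 0.55 in simulans (1.74 ± 0.36, adjusted p = 0.00874). mino, a mitochondrial acyltransferase needed for piRNAs, had 0.88, 0.22, 0.94 and 2.09 in mauritiana and -0.77, -0.53 and -0.85 in simulans (1.75 ± 0.40, adjusted p = 0.0128). Panx, which links piRNAs to silencing of chromatin, was also higher (1.10 ± 0.29, adjusted p = 0.0223). Gasz, another protein of the mitochondrial surface in this pathway, was lower, with -0.56 in mauritiana and 0.84 in simulans (-1.40 ± 0.35, adjusted p = 0.0212), as was the Tudor protein gene tapas (-1.27 ± 0.35, adjusted p = 0.0299). papi was past the threshold in 21 of 23 other settings, and not with the arrays scaled to 1 spread (adjusted p = 0.077) or without simulans 3 (adjusted p = 0.0505). mino was past the threshold in 22 of 23 other settings, and not without simulans 3 (adjusted p = 0.0536). With the pair averaged Panx (adjusted p = 0.136) and Gasz (adjusted p = 0.0884) were not past the threshold, and tapas had too few arrays.

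Chaperone genes were called in 1 direction, with 6 of 26 higher, 0 lower and a median of 0.46 (23.1% called, beside 16.6% of all genes). Hsp60C, a testis paralog of the mitochondrial chaperonin, had 2.76, 0.94, 3.16 and 3.31 in mauritiana and -0.05, 0.01 and -1.28 in simulans (2.98 ± 0.53, adjusted p = 0.00355). CCT5, a subunit of the cytosolic chaperonin that folds tubulin and actin, had 1.51, 1.35, 1.44 and 1.54 in mauritiana and -0.37, -0.40 and -0.86 in simulans (2.0 ± 0.29, adjusted p = 0.00104). Its fellow subunits CCT2 (-0.39), CCT3 (0.37), CCT4 (0.69), CCT7 (0.20) and CCT8 (-0.365) were not past the threshold and differed in both directions. The 4 mauritiana arrays lay close together for CCT5 and spread widely for Hsp60C, where mauritiana 2 was lowest. Hsc70-5, the mitochondrial Hsp70, differed by 2.13 ± 0.39, adjusted p = 0.00413, Hsc70-2 by 1.89 ± 0.49, adjusted p = 0.0209, DnaJ-60 by 1.80 ± 0.39, adjusted p = 0.00998 and DnaJ-H by 1.58 ± 0.39, adjusted p = 0.0179. Hsp60C and CCT5 were past the threshold in all 23 settings. With the simulans pair averaged 5 were higher and 0 lower, without DnaJ-H (adjusted p = 0.0572). With the arrays scaled to 1 spread 7 were higher and 2 lower, and DnaJ-60 (adjusted p = 0.0692) and DnaJ-H (adjusted p = 0.427) were not past the threshold.

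Among 9 testis paralogs of proteasome subunits, 1 was higher and 0 lower (11.1% called, median 0.30), and among 21 general subunits 1 was higher and 0 lower (4.76% called, median 0.08), beside 16.6% of all genes. With the arrays scaled to 1 spread, and likewise with quantile normalization, 3 general subunits were higher and 2 lower, and with no centring 3 of the testis paralogs and 3 of the general subunits were higher. Prosbeta2R1, a testis form of a catalytic core subunit, had 2.16, 2.11, 1.76 and 1.89 in mauritiana and -0.01, 0.03 and 0.68 in simulans (1.75 ± 0.31, adjusted p = 0.00321) and was past the threshold in all 23 settings. Rpt2, an ATPase of the regulatory particle, had 1.42, 0.68, 1.71 and 2.53 in mauritiana and -0.15, 0.24 and -0.17 in simulans (1.61 ± 0.40, adjusted p = 0.0179). Rpt2 was past the threshold in 19 of 23 other settings, and not with simulans 1 and 2 averaged (adjusted p = 0.0526), with the spread from all 22 arrays (adjusted p = 0.0866) or without simulans 1 or simulans 3 (adjusted p = 0.0616 to 0.0676).

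Genes of mitochondrial translation and respiration were called lower more often than higher. Of 42 mitochondrial ribosomal genes, 8 were lower and 3 higher (26.2% called, beside 16.6% of all genes). Of their differences 11 lay above 0, and the median was -0.70. mRpL18 had -1.28, -1.30, -2.97 and -1.57 in mauritiana and 1.10, 0.82 and 0.51 in simulans (-2.59 ± 0.41, adjusted p = 0.00181). mRpS34 stood out on the other side, with -0.33, -0.37, -1.63 and -1.90 in mauritiana and -3.73, -3.76 and -4.07 in simulans (2.80 ± 0.41, adjusted p = 0.00114). Neither gene's arrays overlapped between the species, and both were past the threshold in all 23 settings. mRpS7 (-1.99 ± 0.35, adjusted p = 0.00355) and mRpS35 (-1.87 ± 0.38, adjusted p = 0.00749) were lower as well, and mRpS18B (1.62 ± 0.47, adjusted p = 0.0326) was higher. With the simulans pair averaged 1 was higher and 3 lower, and with the arrays scaled to 1 spread 3 were higher and 9 lower with a median of -0.47.

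Of 28 standard subunits of oxidative phosphorylation 6 were lower and 0 higher, with a median of -0.37 (21.4% called, beside 16.6% of all genes). ND-B18, of complex I, had -2.86, -3.27, -4.46 and -2.03 in mauritiana and -0.77, -0.87 and -0.72 in simulans (-2.37 ± 0.46, adjusted p = 0.00597). ATPsynG, of the ATP synthase, had -3.76, -2.12, -4.05 and -1.90 in mauritiana and -0.57, -0.46 and -1.62 in simulans (-2.07 ± 0.52, adjusted p = 0.019). The others were the ATP synthase genes ATPsynB (-1.73 ± 0.49, adjusted p = 0.0327) and ATPsyngamma (-1.57 ± 0.47, adjusted p = 0.037), ND-SGDH of complex I (-1.31 ± 0.34, adjusted p = 0.0203) and SdhC of complex II (-1.44 ± 0.38, adjusted p = 0.0252). Except for ATPsynB, whose simulans mean was 1.27, these genes lay below 0 on average in both species, that is, lower in testes than in whole males. ND-B18 held in all 23 settings. ATPsynG was past the threshold in 17 of 23 other settings, and not with simulans 1 and 2 averaged (adjusted p = 0.0633), with the arrays scaled to 1 spread (adjusted p = 0.135) or without mauritiana 1, mauritiana 3, simulans 1 or simulans 2 (adjusted p = 0.052 to 0.0702). With the pair averaged 1 of the list was lower, and with the arrays scaled to 1 spread 3 were lower, 1 was higher and the median was 0.02.

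The 11 testis paralogs of such subunits had 1 gene higher and 0 lower, and a median of -0.14, but -0.67 with 0 higher and 5 lower when the arrays were scaled. SdhAL, the testis form of the flavoprotein of complex II, had 2.36, 2.37, 3.05 and 2.74 in mauritiana and 1.45, 1.21 and 0.56 in simulans (1.56 ± 0.33, adjusted p = 0.0091). SdhAL was past the threshold in 21 of 23 other settings, and not with the arrays scaled to 1 spread (adjusted p = 0.106) or without simulans 3 (adjusted p = 0.052). In glycolysis and sugar metabolism 1 of 11 genes was higher and 0 lower (9.09% called, beside 16.6% of all genes, median 0.53). That gene was Pgi, which interconverts glucose and fructose phosphates, with 1.58, 0.65, 0.78 and 1.93 in mauritiana and -0.97, -0.98 and -1.85 in simulans (2.50 ± 0.39, adjusted p = 0.00159), past the threshold in all 23 settings. Without mauritiana 2, 6 of the 11 were higher.

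**Figure D4:**
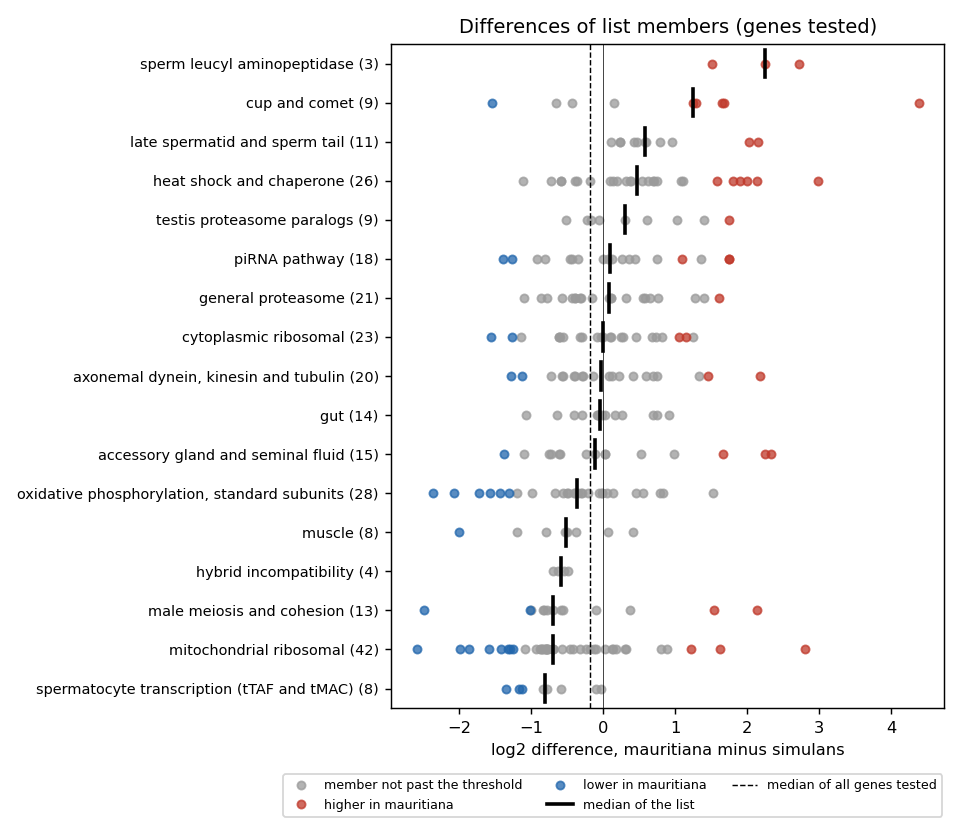
Each point is a gene of the list named at the left, with the number tested in brackets, at its log2 difference, mauritiana minus simulans (horizontal axis). Red points are higher in mauritiana and blue points lower past the threshold, grey points are not past it, thick bars are list medians and the dashed line is the median of all genes, -0.19. The list medians run from 2.24 for the sperm leucyl aminopeptidases to -0.80 for the spermatocyte transcription genes.

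Cytoplasmic ribosomal genes were balanced, with 2 of 23 higher, 2 lower and a median of 0.00 (17.4% called, beside 16.6% of all genes). RpLP1, a stalk protein of the large subunit, was at -0.77, -0.60 and -1.06 on 3 mauritiana arrays and 0.52, 0.29 and 0.55 in simulans (-1.27 ± 0.32, adjusted p = 0.0205). RpL24-like, related to a yeast factor of ribosome assembly, was at -0.29, -0.48, -0.53 and 1.25 in mauritiana and 1.82, 1.79 and 1.04 in simulans (-1.56 ± 0.43, adjusted p = 0.0275), and mauritiana 4 lay among the simulans arrays. The paralogs RpS10a (1.05 ± 0.32, adjusted p = 0.0392) and RpS15Ab (1.15 ± 0.36, adjusted p = 0.0439) were higher. Once the simulans pair was averaged 0 of the list were past the threshold, with 5 at an unadjusted p under 0.05. RpLP1 was past the threshold in 17 of 22 other settings, and not with simulans 1 and 2 averaged (adjusted p = 0.0917), with the spread from all 22 arrays (adjusted p = 0.0866) or without simulans 1, simulans 2 or simulans 3 (adjusted p = 0.0717 to 0.107). RpL24-like was past the threshold in 15 of 23 other settings, and not with simulans 1 and 2 averaged (adjusted p = 0.103), with the spread from all 22 arrays (adjusted p = 0.0774), with the simulans pair averaged and mauritiana 2 left out (adjusted p = 0.114) or without mauritiana 1, mauritiana 3, simulans 1, simulans 2 or simulans 3 (adjusted p = 0.0501 to 0.106).

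Of 24 nuclear pore and transport genes 2 were higher and 1 lower (12.5% called, beside 16.6% of all genes, median -0.54). Nup35 was at -0.47, 0.12, -0.58 and 0.22 in mauritiana and 1.41, 1.36 and 1.09 in simulans (-1.47 ± 0.32, adjusted p = 0.01), and Nup54 at 1.34, 1.04, 1.01 and 2.08 in mauritiana and -0.04, 0.17 and 0.35 in simulans (1.21 ± 0.33, adjusted p = 0.0274). Nup44A was higher as well (1.79 ± 0.52, adjusted p = 0.0336). Nup35 was past the threshold in 20 of 23 other settings, and not with simulans 1 and 2 averaged (adjusted p = 0.0592) or without simulans 1 or simulans 2 (adjusted p = 0.0588 to 0.0593). Nup54 was past the threshold in 16 of 23 other settings, and not with simulans 1 and 2 averaged (adjusted p = 0.126), with the spread from all 22 arrays (adjusted p = 0.0627), with the simulans pair averaged and mauritiana 2 left out (adjusted p = 0.0607) or without mauritiana 1, simulans 1, simulans 2 or simulans 3 (adjusted p = 0.0598 to 0.142). With the pair averaged Nup44A was not past it either (adjusted p = 0.0784).

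Of the 4 hybrid incompatibility genes tested 0 were past the threshold in limma, and 0 had an unadjusted p under 0.05 (median difference -0.58). Lhr and Hmr, whose products act together in the lethality of melanogaster by simulans hybrids, differed by -0.70 ± 0.33, adjusted p = 0.156 and by -0.49 ± 0.34, adjusted p = 0.333. Lhr was at -0.63, -0.29, -0.23 and -0.58 in mauritiana and 0.57, 0.61 and -0.37 in simulans. Hmr was at -1.25, -0.36, -0.18 and -1.09 in mauritiana and -0.17, -0.42 and -0.10 in simulans. The nuclear pore gene Nup160 (-0.62 ± 0.45, adjusted p = 0.352, 2 mauritiana arrays) and gfzf (-0.54 ± 0.40, adjusted p = 0.363) also overlapped between the species. Lhr was past the threshold in 1 of 23 other settings, the array weights (adjusted p = 0.00795), and the other 3 genes in 0.

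Germline stem cell and spermatogonial genes (4 tested, median 0.26), testis somatic genes (4 tested, median 0.32) and adenylyl and guanylyl cyclases (4 tested, median -0.43) had 0 genes past the threshold in limma. At an unadjusted p under 0.05 there were 0, 0 and 2 genes in these lists, and with the arrays scaled 1 cyclase was lower.

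Genes of other tissues were measured because RNA of a neighbouring organ would show in them. Of 15 accessory gland and seminal fluid genes 3 were higher and 1 lower (26.7% called, beside 16.6% of all genes, median -0.11). Acp36DE, a seminal protein needed for sperm storage, was at -0.76, -3.57, -1.56 and -0.54 in mauritiana and -3.67, -3.72 and -4.42 in simulans (2.33 ± 0.59, adjusted p = 0.019). Acp53C14a, of a cluster of seminal protein genes, was at -1.03, -1.83, -1.48 and -0.67 in mauritiana and -3.65, -3.45 and -3.40 in simulans (2.25 ± 0.33, adjusted p = 0.00127). All arrays were below 0 for both genes, the mauritiana arrays between -3.57 and -0.54 and the simulans arrays at -3.40 or lower. The accessory gland markers fixed for this check were 9 genes, of which only Acp36DE and Acp53Ea were tested, with array medians of -1.99 to -1.05 in mauritiana and -3.37 to -3.12 in simulans. Their part in other differences was not tested. The serpin gene Spn38F was higher (1.66 ± 0.48, adjusted p = 0.033) and the odorant-binding protein gene Obp8a lower, with 0.51, 1.23, -0.51 and 0.89 in mauritiana and 2.09, 2.04 and 1.60 in simulans (-1.38 ± 0.40, adjusted p = 0.0324). Acp36DE was past the threshold in 18 of 23 other settings, and not with the spread from all 22 arrays (adjusted p = 0.0777) or without mauritiana 1, mauritiana 3, mauritiana 4 or simulans 3 (adjusted p = 0.0504 to 0.0843). Obp8a was past the threshold in 16 of 23 other settings, and not with simulans 1 and 2 averaged (adjusted p = 0.12), with the spread from all 22 arrays (adjusted p = 0.0752) or without mauritiana 1, mauritiana 3, simulans 1, simulans 2 or simulans 3 (adjusted p = 0.0631 to 0.12). With the pair averaged Spn38F was not past it (adjusted p = 0.0977).

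Muscle genes had 0 of 8 higher and 1 lower (12.5% called, beside 16.6% of all genes, median -0.52, but 0.16 with 0 called when the arrays were scaled). Mlc1, a myosin light chain, was at -3.69, -3.93 and -1.92 on 3 mauritiana arrays and -1.37, -1.21 and -0.97 in simulans (-2.0 ± 0.48, adjusted p = 0.0175). Mlc1 was past the threshold in 17 of 22 other settings, and not with the arrays scaled to 1 spread (adjusted p = 0.154), with the spread from all 22 arrays (adjusted p = 0.15), with the simulans pair averaged and mauritiana 2 left out (adjusted p = 0.0674) or without mauritiana 1 or simulans 3 (adjusted p = 0.0654 to 0.0735). Eye and nervous system genes had 1 of 10 higher, the arrestin Arr1 (0.24, -1.33, -1.12 and -0.94 in mauritiana, -2.11, -2.33 and -3.04 in simulans, 1.71 ± 0.40, adjusted p = 0.0152), and 1 lower, the eye protein kinase C inaC (-1.07, -0.15, -2.77 and -1.27 in mauritiana, 0.61, 0.64 and -0.07 in simulans, -1.71 ± 0.50, adjusted p = 0.0336). The share of the eye and nervous system list called was 20%, beside 16.6% of all genes, and its median was -0.60, and 0.40 when scaled. Arr1 was past the threshold in 22 of 23 other settings, and not without simulans 3 (adjusted p = 0.0728). inaC was past the threshold in 15 of 23 other settings, and not with simulans 1 and 2 averaged (adjusted p = 0.1), with the spread from all 22 arrays (adjusted p = 0.093) or without mauritiana 1, mauritiana 3, mauritiana 4, simulans 1, simulans 2 or simulans 3 (adjusted p = 0.0611 to 0.107). Of 14 gut genes 0 were past the threshold (median -0.04), with 1 at an unadjusted p under 0.05, and 6 were higher when the arrays were scaled (median 1.28).

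Of 19 fat body and blood genes 1 was higher and 2 lower (15.8% called, beside 16.6% of all genes, median -0.15). NimC1, a receptor of blood cells for phagocytosis, was at -1.72, -0.97 and -1.01 on 3 mauritiana arrays and 0.20, 0.11 and 0.20 in simulans (-1.40 ± 0.34, adjusted p = 0.0176). crq, a scavenger receptor, was at 0.79, 0.19, 0.71 and 1.57 in mauritiana and -0.46, -0.57 and 0.04 in simulans (1.14 ± 0.36, adjusted p = 0.0439), and Fbp2 was lower (-1.11 ± 0.35, adjusted p = 0.047). Once the simulans pair was averaged 0 of the 19 were past the threshold, with 3 at an unadjusted p under 0.05. Of 17 antimicrobial and immune genes 2 were lower and 0 higher (11.8% called, beside 16.6% of all genes, median -0.05). Both were ligands of the Spatzle family, spz5 (-1.31 ± 0.37, adjusted p = 0.0344) and spz6 (-1.05 ± 0.33, adjusted p = 0.0487). NimC1 was past the threshold in 16 of 22 other settings, and not with simulans 1 and 2 averaged (adjusted p = 0.076), with the spread from all 22 arrays (adjusted p = 0.505) or without mauritiana 1, simulans 1, simulans 2 or simulans 3 (adjusted p = 0.057 to 0.0787). crq was past the threshold in 11 of 23 other settings, and not with simulans 1 and 2 averaged (adjusted p = 0.181), with 1 row per gene (adjusted p = 0.0663), with the spread from all 22 arrays (adjusted p = 0.22), with the spread from the 19 arrays that are not of sechellia (adjusted p = 0.119), with the replicate block (adjusted p = 0.0507), with the simulans pair averaged and mauritiana 2 left out (adjusted p = 0.0613) or without mauritiana 1, mauritiana 3, mauritiana 4, simulans 1, simulans 2 or simulans 3 (adjusted p = 0.064 to 0.193). spz5 was past the threshold in 12 of 19 other settings, and not with simulans 1 and 2 averaged (adjusted p = 0.131), with 1 row per gene (adjusted p = 0.0699), with the spread from all 22 arrays (adjusted p = 0.375), with the simulans pair averaged and mauritiana 2 left out (adjusted p = 0.0607) or without simulans 1, simulans 2 or simulans 3 (adjusted p = 0.0958 to 0.153). spz6 was past the threshold in 9 of 22 other settings, and not with simulans 1 and 2 averaged (adjusted p = 0.209), with centring on the genes tested (adjusted p = 0.059), with 1 row per gene (adjusted p = 0.0666), with the spread from all 22 arrays (adjusted p = 0.316), with the spread from the 19 arrays that are not of sechellia (adjusted p = 0.14), with a variance trend (adjusted p = 0.0541), with the simulans pair averaged and mauritiana 2 left out (adjusted p = 0.1) or without mauritiana 1, mauritiana 3, mauritiana 4, simulans 1, simulans 2 or simulans 3 (adjusted p = 0.0514 to 0.221).

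Of 63 cytochrome P450 genes, whose products oxidize foreign compounds, hormones and lipids, 5 were higher and 4 lower (14.3% called, beside 16.6% of all genes, median -0.28). Cyp6d5 had 2.27, 1.66, 2.30 and 3.23 in mauritiana and -0.45, -0.64 and -0.40 in simulans (2.86 ± 0.36, adjusted p = 0.000506) and held in all 23 settings. Cyp4d21 was at -2.87 and -3.94 on 2 mauritiana arrays and -0.97, -0.74 and -1.65 in simulans (-2.29 ± 0.45, adjusted p = 0.00859). Of the others, Cyp305a1 (2.21), Cyp4p3 (1.34), Cyp4p1 (1.31) and Cyp4ad1 (1.30) were higher and Cyp313a1 (-1.55), Cyp12a4 (-1.46) and Cyp9c1 (-0.98) lower. With the simulans pair averaged 1 P450 gene was higher and 1 lower, Cyp6d5 and Cyp4d21. Cyp4d21 was past the threshold in 16 of 19 other settings, and not with the arrays scaled to 1 spread (adjusted p = 0.185), with the spread from all 22 arrays (adjusted p = 0.273) or with the spread from the 19 arrays that are not of sechellia (adjusted p = 0.0516).

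Of 21 glutathione transferase genes, whose products conjugate glutathione to foreign and oxidized compounds, 2 were lower and 0 higher (9.52% called, median -0.11). GstE13 was at -0.03, -0.47, -0.99 and -0.33 in mauritiana and 1.65, 1.34 and 0.77 in simulans (-1.71 ± 0.34, adjusted p = 0.00659) and held in all 23 settings. GstE2 was at 0.66, -0.07, 0.11 and -0.35 in mauritiana and 1.44, 1.36 and 0.86 in simulans (-1.13 ± 0.33, adjusted p = 0.0336). GstE2 was past the threshold in 14 of 23 other settings, and not with simulans 1 and 2 averaged (adjusted p = 0.166), with 1 row per gene (adjusted p = 0.0708), with the spread from all 22 arrays (adjusted p = 0.0612), with the simulans pair averaged and mauritiana 2 left out (adjusted p = 0.122) or without mauritiana 3, mauritiana 4, simulans 1, simulans 2 or simulans 3 (adjusted p = 0.0508 to 0.174). Among 15 chemosensory genes 2 were lower and 0 higher (13.3% called, beside 16.6% of all genes, median -0.70). They were Obp8a, given above, and CheA75a, at -2.77 and -1.97 on 2 mauritiana arrays and -0.52, -0.15 and -0.68 in simulans (-1.92 ± 0.40, adjusted p = 0.0114). CheA75a was past the threshold in 15 of 18 other settings, and not with the arrays scaled to 1 spread (adjusted p = 0.0647), with the spread from all 22 arrays (adjusted p = 0.347) or without simulans 2 (adjusted p = 0.0565).

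Scaling the arrays to 1 spread also turned the sign of several list medians given above. They came to -0.19 for the testis proteasome paralogs, -0.01 for the general proteasome, -0.17 for the piRNA pathway, 0.19 for accessory gland and seminal fluid genes, 0.30 for fat body and blood genes and 0.01 for glutathione transferases, and the cytoplasmic ribosomal genes came to 0.50. The median of all genes was -0.12 under that scaling.

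The melanogaster arrays and the arrays of hybrid sons of simulans mothers and mauritiana fathers, which did not enter the fit, place these differences. The melanogaster testis mean was nearer simulans than mauritiana for 291 of 530 higher genes (54.9%) and for 367 of 477 lower genes (76.9%), beside 58.9% of all genes. In pim, for example, melanogaster was at 3.33 and in Ca-beta at 1.52, while in Ufsp2 it was at 1.86 and in CG13088 at 2.93, close to mauritiana. Hybrid means lay between the species for 72.6% of higher genes and 73.8% of lower genes, beside 44.2% of all genes. They were nearer simulans for 42.1% of higher and 37.5% of lower genes, beside 48.6% of all genes. Of the named genes, as examples chosen after their values were seen, TSG101 (0.06), Ufsp2 (-1.06) and schuy (-0.43) had hybrid means on the simulans side, and S-Lap5 (2.79), Naa30A (2.41) and polybromo (-2.11) on the mauritiana side. These shares are descriptions with no test, since all arrays share the whole male RNA and a gene called between the species has a wide interval for any other mean to fall in.

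**Figure D5:**
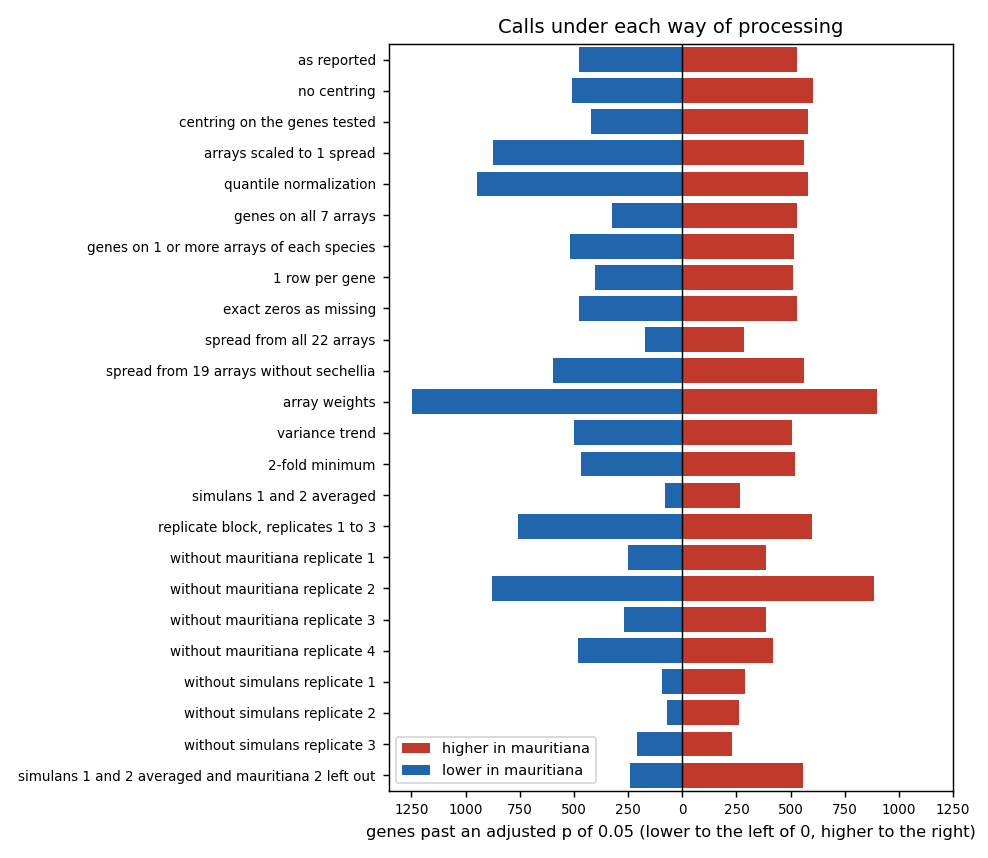
Bars show how many genes were higher (red, to the right of 0) or lower (blue, to the left) in mauritiana past an adjusted p of 0.05 under each way of processing, 1 row per setting. The reported fit has 530 and 477, the fewest lower calls are the 72 without simulans 2, and the array weights give the most, 900 and 1248.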

How the data were processed

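Testis RNA (Cy5) of mauritiana and simulans was measured against whole melanogaster male RNA (Cy3) on 2-colour spotted arrays, labelled and hybridised at an array centre, per the labels. The values used are the log2 ratios the authors deposited in the series' value table. Their scale, within-array normalization and sign are not given in the sources used here. Base 2 was inferred from other arrays: in the 3 sechellia arrays of the series, 4 times 2 raised to the size of a value was within 0.001 of a whole number for 8.01, 12.5 and 12.6% of values between 3 and 8, against at most 0.607% for other bases. On the 7 arrays compared here this share was 0 to 0.69% for base 2 and 0 to 1.07% for other bases, so it does not tell their base, which was taken to be that of the same table's sechellia arrays. The direction, testes over whole males, follows the titles and the low values of gut genes. The deposited array medians over named rows were -0.30 to 0.06.

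Of 27648 rows, 15116 had 1 gene symbol in the platform annotation, 102 had several and 12430 were not listed, and rows with 1 symbol were used. The median of these rows was subtracted from each array, and rows of a gene were averaged. Genes with values on at least 2 arrays of each species were tested in limma 3.58.1 (R 4.3.3, lmFit and eBayes) with the spread from the 7 arrays alone. Adjusted p-values are Benjamini-Hochberg over all 6055 genes, errors are SEs of the difference, and n is 4 mauritiana and 3 simulans arrays unless fewer are stated. The fit was also run on simulated data with independent normal noise on every array. These had no nearly alike pair, no array apart from its group and no unequal array spreads. The simulation therefore cannot tell how those features affect the calls. Alternatives changed the centring, scaling, gene filter, row choice, source of the spread, array weights, variance trend, minimum fold, the simulans pair, the replicate block and each array in turn.

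The comparison and the 29 gene lists were chosen with earlier results of these data known. Members with another function were removed from lists after values were seen, but Dic1 and Dic3 stayed in the axonemal list and kmg in the tTAF and tMAC list. Named were, of called genes on all 7 arrays without overlap, the 6 highest and 6 lowest of any symbol and of symbols other than CG numbers, for each list up to 2 called members by smallest p, and the hybrid incompatibility genes. Other members of the lists in the text were named after their values were seen. No sequences or chromosome positions were used here.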

Additional observations from a re-analysis of the deposited data

Results flagged for a closer look

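Some values on mauritiana arrays lay far from the other 3 arrays of that species, by Dixon's criterion for 4 samples. It was applied to 53 named genes with 4 mauritiana values and to the array medians of 41 lists and flagged 6, and chance flags about 1 in 20. Mauritiana 4 was high for CG13088 (3.71, against 2.88, 2.91 and 2.91 on the other arrays), for papi (3.59, against 2.55, 2.60 and 2.62) and for RpL24-like (1.25, against -0.53, -0.48 and -0.29). Mauritiana 2 was low for S-Lap7 (0.32, against 2.78, 2.92 and 3.18) and high for comr (0.31, against -0.39, -0.32 and -0.30). The median of the axonemal dynein, kinesin and tubulin list, with Dic1 and Dic3 in it, was 0.18 on mauritiana 2, against 1.15, 1.18 and 1.30 on the others. Mauritiana 4 had the widest spread over the genes tested (1.46) and mauritiana 2 the narrowest of the species (0.73), and the part of this in these values was not tested.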

How the results depend on the processing

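The count of 1007 genes (530 higher, 477 lower) moved by over 1.5 times under several settings, and the cause was not tested. It was 1527 with quantile normalization, where lower calls rose to 947, and lower calls were 871 with the arrays scaled to 1 spread. It was 455 (284 higher, 171 lower) with the spread from all 22 arrays, 2148 (900 higher, 1248 lower) with array weights and 349 (267 higher, 82 lower) with simulans 1 and 2 averaged, which leaves fewer samples. Leaving out 1 array gave 332 to 1760 genes, 229 to 884 higher and 72 to 876 lower. The highest of the totals came without mauritiana 2 and the lowest without simulans 2. Averaging the simulans pair and leaving out mauritiana 2 as well, a setting chosen after seeing the data, gave 798 genes (556 higher, 242 lower). With the replicate number as a block there were 1356 calls (600 higher, 756 lower). Deviations of same-numbered arrays from their species correlated at 0.04, -0.17 and 0.09, and for 0 of 3 numbers were the arrays each other's best match. Because simulans 1 and 2 were nearly alike, this cannot tell whether the shared numbers pair the samples. Under the other settings the total was within 1.5 times of 1007, from 855 among genes on all 7 arrays to 1431 with scaled arrays, where 12 of the 1007 changed sign. Of the 58 named genes past the threshold, 41 were past it with the pair averaged and 27 in every setting with a value, and for no named gene did the direction reverse. No setting could tell probe binding from level, and missing values on mauritiana arrays left 3954 genes measured on all 7.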

Other observations

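Further gene families were looked at after their values had been seen, so their counts are descriptions. Of 17 tetraspanins, membrane proteins that organise receptors, 3 were higher in mauritiana and 1 lower (23.5% called, beside 16.6% of all genes). Of their differences 7 lay above 0, and the median was -0.29 beside -0.19 for all genes. The lower one was Tsp97E (-1.34 ± 0.32, adjusted p = 0.0166, and adjusted p = 0.074 with the simulans pair averaged), and the 3 higher ones were among the 7 genes of the Tsp42E cluster, singled out for that, whose median was 0.80. Tsp42Ei had 1.33, 1.13, 1.98 and 2.37 in mauritiana and -0.26, -0.30 and -0.54 in simulans (2.07 ± 0.35, adjusted p = 0.0026), and Tsp42Ef (1.83 ± 0.34, adjusted p = 0.00428) and Tsp42Ed (1.75 ± 0.35, adjusted p = 0.00662) were also higher. The 3 higher genes were past the threshold with the simulans pair averaged and under every scaling. Of 12 ESCRT genes 3 were higher and 0 lower (25% called, beside 16.6% of all genes). They were TSG101, its partner ALiX (2.08 ± 0.32, adjusted p = 0.00145) and the ATPase Vps4 (1.40 ± 0.35, adjusted p = 0.0186, and adjusted p = 0.0616 with the simulans pair averaged). Of 10 ubiquitin-specific proteases 2 were higher and 0 lower (20% called). Among these the deubiquitinase Usp14, which works at the proteasome, had 2.40, 2.76, 2.43 and 2.78 in mauritiana and -0.34, -0.36 and -0.61 in simulans (3.03 ± 0.29, adjusted p = 0.00015). Of 10 V-ATPase subunits 3 were higher and 0 lower (30% called). They were Vha36-2 (2.27 ± 0.34, adjusted p = 0.00145) and Vha68-3 (1.31 ± 0.33, adjusted p = 0.0183), both testis forms, and Vha55 (1.28 ± 0.37, adjusted p = 0.0339). With the pair averaged only Vha36-2 of these was past the threshold. Of 7 tubulin ligase-like genes 2 were higher and 0 lower (28.6% called). TTLL6A (2.21 ± 0.64, adjusted p = 0.0324) and TTLL4B (1.82 ± 0.46, adjusted p = 0.0188), enzymes that add glutamate to tubulin, were higher, though not with the pair averaged.

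Of 4 genes of the synaptonemal complex, which joins homologs in female meiosis and is not formed in fly males, 2 were lower. c(3)G was at 1.51, 2.40, 1.97 and 1.17 in mauritiana and 3.78, 3.71 and 3.82 in simulans (-2.01 ± 0.34, adjusted p = 0.0026), and cona at -1.02, -1.41 and -1.28 in mauritiana and 0.56, 0.80 and 0.44 in simulans (-1.84 ± 0.32, adjusted p = 0.00363). Both were past the threshold with the simulans pair averaged. Of 24 cuticle protein genes 4 were lower and 0 higher (16.7% called, beside 16.6% of all genes). Acp1, an adult cuticle protein whose symbol recalls accessory gland genes, was at -3.89, -3.42 and -3.06 in mauritiana and -0.12, 0.20 and -0.14 in simulans (-3.44 ± 0.34, adjusted p = 0.000193), and Cpr49Ae (-2.89 ± 0.47, adjusted p = 0.00266), Cpr62Bb (-2.14 ± 0.44, adjusted p = 0.00803) and Cpr100A (-1.24 ± 0.34, adjusted p = 0.0291) were lower as well, the last not with the pair averaged (adjusted p = 0.124). Of 16 Mediator subunits 3 were lower and 0 higher (18.75% called, beside 16.6% of all genes). The lower ones were MED10 (-1.20 ± 0.35, adjusted p = 0.0362), MED26 (-1.12 ± 0.36, adjusted p = 0.047) and MED1 (-1.07 ± 0.31, adjusted p = 0.0324). With the pair averaged 0 of the 16 were past the threshold, with 3 at an unadjusted p under 0.05. Of 30 translation factors, 13.3% of which were called, eIF4G1 was lower and the initiation factor 3 subunits eIF3l (1.83 ± 0.55, adjusted p = 0.0374), eIF3b (1.76 ± 0.45, adjusted p = 0.0212) and eIF3a (1.16 ± 0.31, adjusted p = 0.023) were higher. With the pair averaged eIF4G1 and eIF3b (adjusted p = 0.0334) were past the threshold, and eIF3l (adjusted p = 0.0569) and eIF3a (adjusted p = 0.0845) were not. Among 7 TBP-associated factors 2 were higher, Taf11 (1.38 ± 0.39, adjusted p = 0.0293) and Taf4 (1.14 ± 0.29, adjusted p = 0.0206), and 2 lower, Taf3 (-1.39 ± 0.38, adjusted p = 0.026) and Taf12L, and with the pair averaged 0 of the 7 were past the threshold, where 4 had an unadjusted p under 0.05. Of 10 genes of N-terminal acetyltransferases, Naa20A was lower (-1.69 ± 0.33, adjusted p = 0.00589) and Naa30A and Naa35 (1.0 ± 0.29, adjusted p = 0.0333) higher, Naa35 not with the pair averaged (adjusted p = 0.15).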
